A study of Mus musculus with 6 samples.

Results

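Tetraspanins are small proteins that cross the cell membrane several times and carry a large outer loop held by a conserved cysteine motif. They bind integrins, immunoglobulin-superfamily proteins, proteases and each other, gather them into membrane microdomains, and steer their partners' export, turnover and release on extracellular vesicles. The members taken here were the probe sets that the platform annotation gives to a single symbol of the form Tspan with a number, together with Cd9, Cd37, Cd53, Cd63, Cd81, Cd82 and Cd151. These were 56 of 45101 probe sets on the array and 25 of 18194 genes with a probe set of their own. Cd63 and Tspan7 were not analysed here. Where a gene has several probe sets, the brightest on average was read.

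Expression was measured with Affymetrix arrays in cultured hepatic stellate cells, the liver pericytes that become matrix-producing myofibroblasts after injury, isolated from mice of C57Bl/6 background. Every sample carried the transgenes CMV-rtTA;TRE-GFP-shRNA.p53.1224, in which a CMV promoter drives a doxycycline-dependent activator that switches on a green fluorescent marker and a hairpin against p53. The proliferating group (3 arrays) was given doxycycline at 1 ug/ml and is described as p53-depleted, and the senescent group (3 arrays) is the control, described as expressing p53. Doxycycline, p53 depletion and proliferation came together in the same samples, so their parts in any difference cannot be told apart. The transcript targeted by the hairpin is not analysed here. Of the known p53 target genes, Cdkn1a was 3.34-fold lower and Mdm2 2.32-fold lower in the proliferating group.

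All values are log2 expression values, and every change is proliferating minus senescent. Within groups the arrays correlated at 0.995 to 0.997 over probe sets, and across groups at 0.989 to 0.992. Since there are no detection calls, 44 probe sets of olfactory receptors, genes largely silent outside the nose, served to set a background level of 5.57, their 95th percentile. Of 15 stellate cell markers 11 lay above it, including Acta2, Col1a1 and Pdgfrb, while Lrat, Reln, Lhx2 and Lum did not. Of these stellate markers 7 were higher and 0 lower in proliferating cells, with a summed linear signal of 125507 to 128811 on proliferating and 99675 to 101127 on senescent arrays. All 6 mesothelial markers also lay above it, among them Upk3b with 12.61 in proliferating and 12.42 in senescent cells. Of these mesothelial markers 3 were higher in proliferating cells (Lrrn4, Wt1 and Gpm6a) and 2 lower (Msln and Upk1b). For both marker lists, the shares over all genes were 10.5% called higher and 9.49% lower (limma adjusted p under 0.05). Of genes above background 27.4% were called in either direction. Lrrn4 averaged 10.23 in proliferating and 8.43 in senescent cells, and Msln 10.79 and 11.58. The summed linear signal of the 6 was 20928 to 22924 on proliferating and 22215 to 22523 on senescent arrays. The mean of their log2 values did not overlap, with 11.08 to 11.36 on proliferating and 10.72 to 10.80 on senescent arrays. The part of mesothelial cells in the results below was not tested. The poly-A spike-ins, foreign control RNAs mixed into each sample, differed by -0.54 ± 0.15 (SE), with ranges of 9.75 to 9.93 in proliferating and 10.17 to 10.65 in senescent cells (exact two-sided permutation p = 0.1, the smallest that 3 against 3 arrays can give). Shifting each array to these spike-ins moved the median of all genes to 0.54, so all changes are given relative to the bulk of genes on the array. The hybridisation control probe sets differed by -0.085 ± 0.083 (SE, exact two-sided permutation p = 0.4). Those of 18S RNA differed by 0.016 ± 0.20 (SE). No label places the arrays of a group in separate animals or cultures, and the p-values rest on a spread between samples that may be purely technical.

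Tetraspanin genes moved in both directions between the groups. In proliferating cells Tspan13 was 2.40-fold higher and Cd82 1.72-fold higher, while Cd53 was 3.45-fold lower, Tspan2 1.76-fold lower and Tspan8 1.52-fold lower. Of 25 genes, 5 passed an adjusted p of 0.05 as higher and 5 as lower (limma with Benjamini-Hochberg adjustment over all genes), and 15 did not pass. Over all 18194 genes 10.5% passed as higher and 9.49% as lower, together 20.0%. The share of higher calls among all calls was 52.6%, against 36.8% with arrays centred on the median gene and 98.6% with the spike-in shift, under which 16 tetraspanins were called higher and 1 lower. Among genes above background 27.4% passed, against 10 of the 22 tetraspanin genes above background. The median log2 change was -0.06 for the tetraspanins and 0.00176 for all genes, and the median size of change regardless of sign was 0.24 for tetraspanins and 0.13 for all genes. The arrays of the 2 groups did not overlap for 17 of the 25 members and for 37.0% of all genes. These figures for all genes include more dim genes, as 12501 of 18194 genes lay above background, against 22 of the 25 members. Tspan13, Cd82, Cd53, Tspan2 and Tspan8 kept their calls when each of the 6 arrays was left out in turn. The other calls were less stable, so that 2 members were called higher without senescent replicate 3 and 3 without any other array, and 3 were called lower without proliferating replicate 2 or 3 or senescent replicate 1. The other 5 called members had smaller changes, from 1.19-fold to 1.37-fold.

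**Figure D1:**
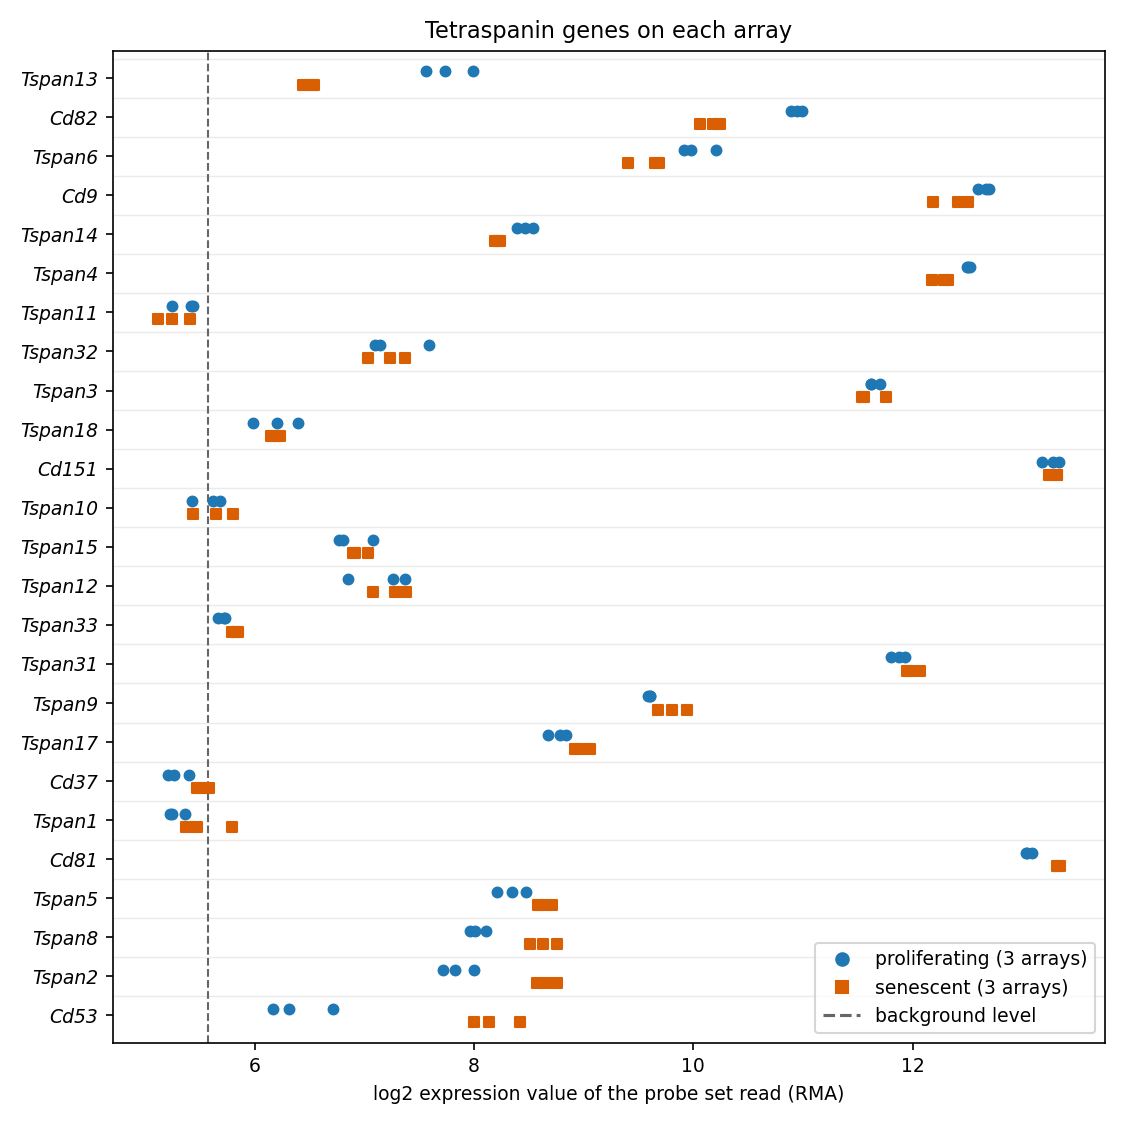
Log2 expression values of the probe set read for each of the 25 tetraspanin genes on the 3 proliferating arrays (blue circles) and the 3 senescent arrays (orange squares), ordered by change, with the background level of 5.57 as a dashed line. Tspan13 and Cd82 lie apart with the proliferating arrays to the right, Cd53, Tspan2 and Tspan8 with the senescent arrays to the right, and Cd37, Tspan1 and Tspan11 lie around or below background.

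Tspan13 (Entrez gene 66109), a tetraspanin also known as NET-6, showed the largest rise among the members. Its levels were 7.56, 7.74 and 7.99 on the proliferating arrays, against 6.52, 6.44 and 6.54 on the senescent arrays. Every proliferating array lay above every senescent one, and all 6 were above background. The log2 change was 1.26 ± 0.11 (SE, n = 3 per group, limma adjusted p = 2.05e-04). A second probe set of the gene gave 0.94 and also passed (limma over all probe sets, adjusted p = 0.00254), a fit in which 12.4% of all probe sets passed.

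Cd82 (Entrez gene 12521), a metastasis suppressor that has been described as a p53 target gene in human cells, was likewise higher in the p53-depleted cells. It read 11.00, 10.89 and 10.95 on the proliferating arrays, against 10.25, 10.07 and 10.18 on the senescent arrays. The groups were separated by more than the range within either of them, with a log2 change of 0.78 ± 0.08 (SE, n = 3 per group, limma adjusted p = 3.47e-04). The gene's other probe set, with a mean of 7.51, did not follow it and gave 0.05 (adjusted p = 0.895). The mean of both gave 0.41 and passed (adjusted p = 0.011).

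Cd53 (Entrez gene 12508), a tetraspanin of white blood cells, was the member with the largest change of all. Its levels were 6.71, 6.31 and 6.17 on the proliferating arrays, against 8.14, 8.42 and 8.00 on the senescent arrays. All arrays were above background and the groups lay far apart, with a change of -1.79 ± 0.16 (SE, n = 3 per group, limma adjusted p = 2.06e-04). Its other probe set lay below background with a mean of 3.66 and gave -0.09, and the mean of both gave -0.94 and passed. Of 7 measured leukocyte markers, among them Ptprc, Cd3e, Cd79a and Ms4a1, 1 lay above background and 0 passed the test, and their summed linear signal was 189 to 203 on proliferating and 200 to 220 on senescent arrays. Ptprc, which defines white blood cells, averaged 3.78 in proliferating and 3.95 in senescent cells, below background. Of 8 macrophage markers, 4 lay above background and 1, Csf1r, passed as lower, by -0.35. Cd14, the brightest of them, read 9.17 in proliferating and 8.99 in senescent cells and did not pass. Cd68 read 5.61 in proliferating and 6.09 in senescent cells, the largest fall of the 8 (-0.48), and did not pass either. Of the 8, only Cd14 and Clec4f had a positive change. The summed signals of the 8 were 1034 to 1049 on proliferating and 994 to 1087 on senescent arrays. The mean of their log2 values was 5.73 to 5.88 on proliferating and 5.92 to 5.96 on senescent arrays. The part of macrophages in the reading of Cd53 was not tested, and in such bulk samples fewer cells of a type and less RNA per cell cannot be told apart.

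The other tetraspanins of white blood cells did not pass the test. Cd37, known from B cells, read 5.21, 5.40 and 5.26 on the proliferating arrays and 5.48, 5.51 and 5.59 on the senescent arrays, with 1 of 6 arrays above background. Its change of -0.24 ± 0.08 (SE) did not pass (limma adjusted p = 0.0668), and its second, dimmer probe set gave 0.22. Tspan32, known from blood-forming cells, read 7.14, 7.59 and 7.10 in proliferating and 7.03, 7.23 and 7.37 in senescent cells, and the groups overlapped. Its change was 0.06 (95% interval -0.26 to 0.39), and a dimmer probe set below background gave -0.14.

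Tspan2 (Entrez gene 70747), best known from oligodendrocytes and neurons, was lower in proliferating cells in each of its 3 probe sets. The probe set read gave 7.72, 7.83 and 8.00 on the proliferating arrays, against 8.76, 8.65 and 8.58 on the senescent arrays. The log2 change was -0.82 ± 0.09 (SE, n = 3 per group, limma adjusted p = 7.30e-04), and the other 2 probe sets gave -1.12 and -0.47. The groups did not overlap, and the 3 probe sets passed the test over probe sets. The call ended with the spike-in shift (-0.27, adjusted p = 0.161).

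Tspan8 (Entrez gene 216350), a tetraspanin of epithelial and tumour cells that is carried on vesicles, was lower as well. It read 8.11, 8.01 and 7.97 on the proliferating arrays, against 8.63, 8.76 and 8.51 on the senescent arrays. The log2 change was -0.60 ± 0.08 (SE, n = 3 per group, limma adjusted p = 0.00191), with no overlap. All 5 of its probe sets had a negative change, from -0.60 to -0.21, but only 2 of them passed, and 3 had means below background, including one of the 2 that passed. The mean of the 5 gave -0.39, and with the spike-in shift the call ended (-0.063, adjusted p = 0.749). Among 5 measured markers of biliary cells, an epithelium of the liver, Krt19, the brightest, was lower (-0.58) and Krt7 higher (0.69). Epcam (0.24), Sox9 (0.23) and Cftr (0.28) did not pass. The summed linear signal of the 5 was 2025 to 2108 on proliferating and 2536 to 2809 on senescent arrays. The mean of their log2 values went the other way, with 7.30 to 7.39 on proliferating and 7.13 to 7.17 on senescent arrays. The part of such cells in the reading of Tspan8 was not tested. Of 7 measured hepatocyte markers 4 lay above background, Apob was lower (-0.86) and the others did not pass. Of 7 endothelial markers 1 lay above background on average, and only Cdh5 passed, as lower. Cdh5 averaged 5.74 in senescent cells, with all proliferating arrays below background.

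**Figure D2:**
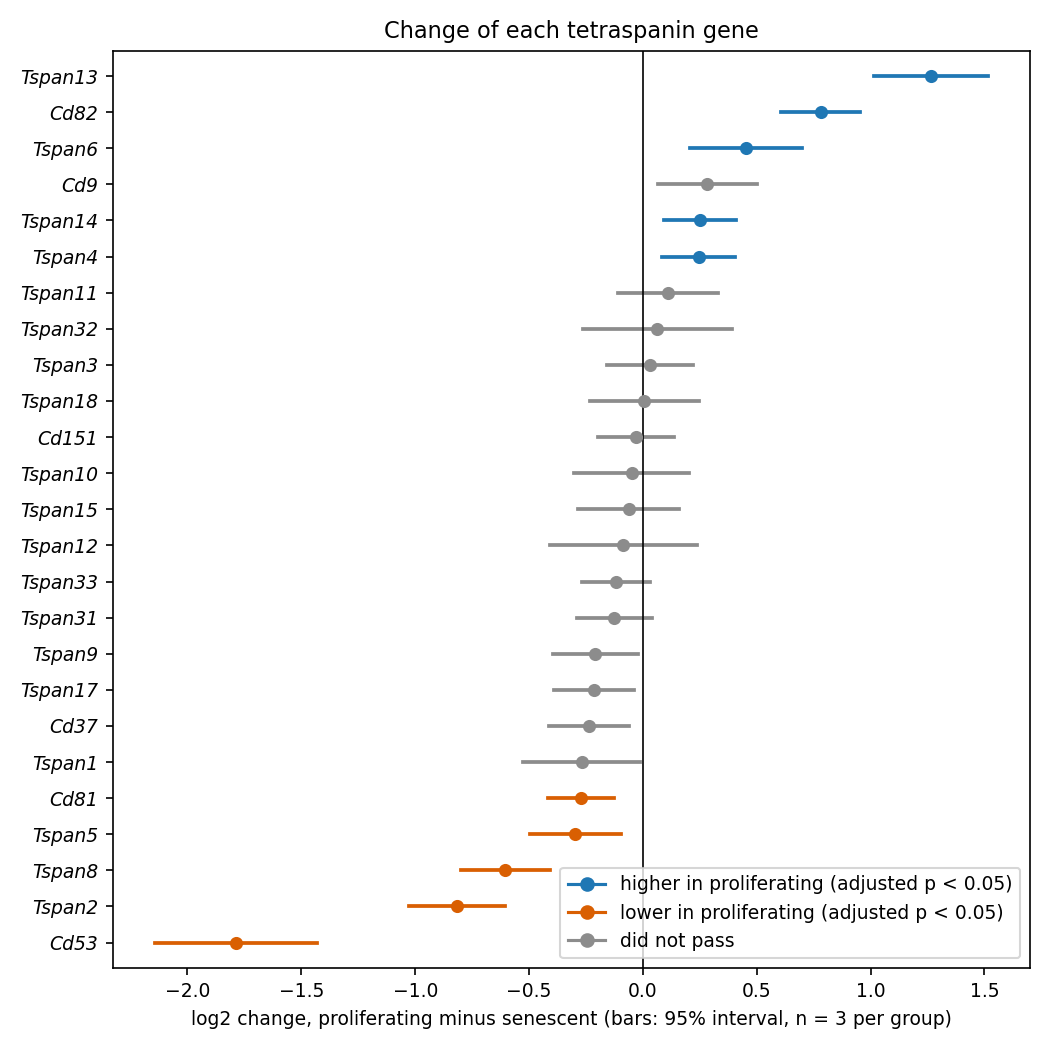
Log2 change of each tetraspanin gene, proliferating minus senescent, with its 95% interval (limma, n = 3 per group), blue where higher and orange where lower at an adjusted p of 0.05, grey where the test was not passed. Changes run from 1.26 for Tspan13 to -1.79 for Cd53, and 15 of 25 genes are grey.

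The sequence before the transcription start was examined in RefSeq promoters of build GRCm38.p6, which were matched for 24 of the 25 members with 34 annotated starts. The 250 bases before the start are printed for Tspan13 and Cd53, the members that changed most in each direction, with the CG dinucleotides in capitals, since the windows differ in composition. The window of Tspan13 (chr12:36042479-36042728, minus strand) has 21 CG dinucleotides and 66.0% G and C, and that of Cd53 (chr3:106790150-106790399, minus strand) has 2 and 45.2%.
Tspan13: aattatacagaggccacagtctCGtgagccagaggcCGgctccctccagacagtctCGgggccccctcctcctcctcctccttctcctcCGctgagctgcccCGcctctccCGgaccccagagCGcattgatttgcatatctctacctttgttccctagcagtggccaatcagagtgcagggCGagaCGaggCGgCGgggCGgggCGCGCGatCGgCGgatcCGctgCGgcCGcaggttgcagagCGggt
Cd53: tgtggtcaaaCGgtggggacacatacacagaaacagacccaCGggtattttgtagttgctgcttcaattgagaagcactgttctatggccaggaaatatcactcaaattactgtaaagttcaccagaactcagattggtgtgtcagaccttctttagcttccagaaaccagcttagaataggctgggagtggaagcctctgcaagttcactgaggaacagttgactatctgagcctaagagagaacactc
The median over the tetraspanin windows was 9.5 CG dinucleotides, and over all 32851 windows it was 6.

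The consensus half-site of p53, a decamer, was searched on both strands, p53 being the factor that differs between the groups by design. It occurred in 2 of the 34 tetraspanin windows and in 7.13% of all windows. Both matches lay before genes that did not pass the test, and they are shown with 10 flanking bases on each side and the decamer in capitals, on the plus strand.
Cd151 (chr7:141467302-141467331, decamer starting 50 bases before the start site): aaaccagttaGGACTTGCCTgcccaggccg
Tspan11 (chr6:127887410-127887439, decamer starting 202 bases before the start site): gagaagtgggAGGCTTGTCCctacatccca
No window of the 10 called members held the decamer, which says only that these letters were not in these windows. Other motifs, searched on both strands, were GGGCGG in 15 of 34 tetraspanin windows and 32.7% of all, TATAAA in 1 and 12.4%, and TGANTCA in 1 and 6.75%.

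Among the tetraspanins that bind integrins or mark vesicles, the changes besides that of Cd82 were small. Cd81, a receptor of hepatitis C virus in humans, read 13.09, 13.04 and 13.04 on the proliferating arrays, against 13.32, 13.32 and 13.34 on the senescent arrays. The groups were well separated, and the change of -0.27 ± 0.06 (SE, n = 3 per group) passed (limma adjusted p = 0.019). The call ended without proliferating replicate 2 or 3 or senescent replicate 1 (changes between -0.29 and -0.26 with any 1 array left out, adjusted p of 0.0291 to 0.0761), and the sign turned to 0.27 when arrays were shifted to the spike-ins. Cd9, which is needed on the egg for fusion with sperm and binds the EWI proteins, read 12.60, 12.69 and 12.67 in proliferating and 12.42, 12.51 and 12.19 in senescent cells. These did not overlap, but the change of 0.28 ± 0.09 (SE) did not pass (adjusted p = 0.0712). It passed when dim genes were left out (adjusted p = 0.0468) and with a robust trend in the variance (limma adjusted p = 0.0186).

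Cd151, the partner of laminin-binding integrins, differed by less than the spread within the groups in the probe set read. It read 13.18, 13.34 and 13.28 on the proliferating arrays and 13.25, 13.32 and 13.32 on the senescent arrays, with a change of -0.03 (95% interval -0.20 to 0.14). Of its 6 probe sets 0 passed, and their changes ran from -0.18 to -0.03. The probe set read has the suffix _x_at, a type that can bind related transcripts. The brightest Cd151 probe set without it gave -0.17, with no overlap between the groups, and did not pass (limma adjusted p = 0.128). Tspan33 was also read from an _x_at probe set, and Tspan12 and Tspan14 from their only probe sets, with the suffix _s_at. Without both types 23 members remained, Tspan12 and Tspan14 not among them, and 4 passed as higher and 5 as lower.

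Tetraspanins of the TspanC8 group bind the metalloproteinase Adam10 and govern its exit from the endoplasmic reticulum and its choice of substrates. Of the 6, Tspan14 was higher, Tspan5 was lower and 4 did not pass. All 6 lay above background on average, and the called share of 33.3% is near the 27.4% of all genes above background. Tspan14 read 8.47, 8.39 and 8.54 in proliferating and 8.19, 8.23 and 8.22 in senescent cells, without overlap (log2 change 0.25 ± 0.07, SE, limma adjusted p = 0.0376). Tspan5 read 8.48, 8.34 and 8.21 in proliferating and 8.62, 8.59 and 8.71 in senescent cells, also without overlap (-0.30 ± 0.09, adjusted p = 0.0451). The call of Tspan14 ended with any 1 array left out (changes of 0.21 to 0.29, adjusted p of 0.0557 to 0.145). That of Tspan5 ended with any array but proliferating replicate 1 left out (-0.36 to -0.23, adjusted p of 0.0222 to 0.154), and its sign turned to 0.24 when arrays were shifted to the spike-ins.

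The other TspanC8 genes gave smaller changes or lay near background. Tspan17 had a change of -0.22 (limma adjusted p = 0.0876), with no overlap between the groups, and its second probe set gave -0.27. Tspan15, which directs Adam10 to N-cadherin, had -0.06. Tspan10, known from the eye, had -0.05 with 2 of 3 arrays of each group above background. Tspan33, known from red cell precursors and B cells, read 5.73, 5.67 and 5.72 in proliferating and 5.79, 5.85 and 5.83 in senescent cells, just above background. Its change of -0.12 did not pass (adjusted p = 0.267), and of its 4 probe sets 2 had a positive and 2 a negative change. Adam10 itself read 12.97, 12.94 and 12.95 in proliferating and 12.70, 12.83 and 12.79 in senescent cells, a change of 0.18 ± 0.07 (SE) that did not pass (adjusted p = 0.112). It passed with a robust trend in the variance (adjusted p = 0.0211) and with the spike-in shift (0.72, adjusted p = 6.78e-04).

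Of the other members, Tspan6 and Tspan4 were higher in proliferating cells by modest amounts. Tspan6, an X-linked gene whose product dampens antiviral RNA sensing, read 10.21, 9.98 and 9.91 in proliferating and 9.66, 9.68 and 9.41 in senescent cells. The change was 0.45 ± 0.11 (SE, limma adjusted p = 0.0204), its second probe set gave 0.41 and passed too, and the call ended without senescent replicate 3 (0.37, adjusted p = 0.0605). Tspan4, which builds migrasomes, the vesicles left on the retraction fibres of migrating cells, read 12.51, 12.49 and 12.52 in proliferating and 12.32, 12.18 and 12.29 in senescent cells. Its groups did not overlap (0.25 ± 0.07, adjusted p = 0.0404), but the call ended with any 1 array left out (0.20 to 0.27, adjusted p of 0.0681 to 0.126). The calls of Tspan4 and Tspan14 also ended when arrays were centred on the median gene (0.18 for each, adjusted p of 0.128 and 0.123).

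Tspan31, found amplified in human sarcomas, read 11.93, 11.88 and 11.80 in proliferating and 11.97, 11.95 and 12.07 in senescent cells. The groups lay next to each other without overlap, and the change of -0.13 did not pass (adjusted p = 0.288). Tspan9, known from platelets, had -0.21 (adjusted p = 0.114). Tspan12, a co-receptor of Norrin and Frizzled-4, had -0.09, Tspan3 had 0.03 and Tspan18 had 0.00620, each with overlapping groups. For Tspan12 the 95% interval was -0.41 to 0.24, so a change of modest size was not detectable with 3 arrays a group. Tspan1 and Tspan11 were not above background on average. Tspan1 read 5.23, 5.37 and 5.25 in proliferating and 5.48, 5.37 and 5.79 in senescent cells, with 1 array above background. Tspan11 read 5.42, 5.44 and 5.24 in proliferating and 5.12, 5.24 and 5.41 in senescent cells, and none of its 4 probe sets passed or lay above background.

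**Figure D3:**
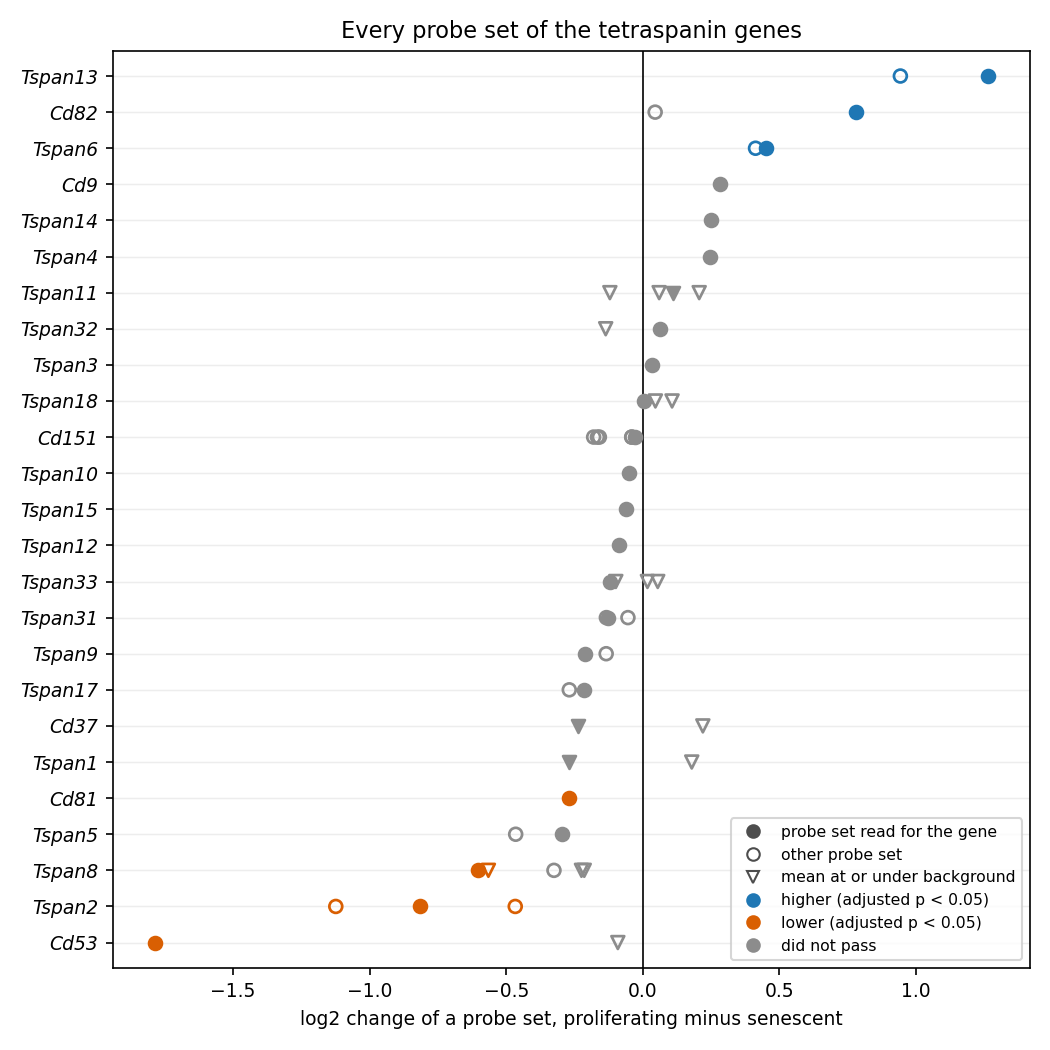
Log2 change, proliferating minus senescent, of each of the 56 tetraspanin probe sets, with the probe set read for the gene filled, others open, and triangles for means at or under background. The probe sets of Tspan13, Tspan6 and Tspan2 all passed (coloured), while Cd82, Cd53 and Tspan8 each have at least 1 probe set that did not.

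Of the 56 probe sets, 38 lay above background, 5 passed as higher and 7 as lower in the fit over all probe sets. In that fit 12.4% of all 45101 probe sets passed. Among 17 genes with several probe sets, 3 had every probe set called, namely Tspan13, Tspan6 and Tspan2. The calls of Tspan14, Tspan4 and Tspan5 ended in that fit (adjusted p of 0.0705, 0.0749 and 0.0762). Some members are neighbours in the genome. Cd82 and Tspan18 have no protein-coding gene between them on chromosome 2 in RefSeq (GRCm38.p6), and gave 0.78 and 0.00620. Cd81 and Tspan32, likewise adjacent on chromosome 7, gave -0.27 and 0.06, and Tspan11 and Tspan9, adjacent on chromosome 6, gave 0.11 and -0.21.

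The relatives of the family outside the naming rule were also examined. Of 8 measured tetraspanins with other names and L6 proteins, which resemble tetraspanins in shape, 1 passed as lower and 0 as higher, a share of 12.5% against 20.0% of all genes. This was Upk1b, a uroplakin tetraspanin that is also a mesothelial marker, with 12.87, 12.90 and 12.92 in proliferating and 13.34, 13.33 and 13.32 in senescent cells. Its change was -0.43 ± 0.06 (SE, limma adjusted p = 0.00230), its 4 probe sets all passed, and its sign turned to 0.11 when arrays were shifted to the spike-ins.

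Surface partners of tetraspanins moved in both directions. Of 32 measured, 11 passed as higher and 8 as lower, against 10.5% and 9.49% of all genes, with a median change of -0.03. Together 59.4% passed, and 30 of the 32 lay above background, where 27.4% of all genes passed. Cldn1, a tight junction protein that associates with Cd9 and Cd81, was 4.96-fold higher, with 9.19, 9.68 and 9.62 in proliferating and 7.34, 7.25 and 6.98 in senescent cells (log2 change 2.31 ± 0.15, SE, limma adjusted p = 5.80e-05). Of its 4 probe sets 3 passed, and their mean gave 0.95. Hbegf, a growth factor precursor that Cd9 binds, was 2.50-fold lower, with 10.13, 9.55 and 9.76 in proliferating and 11.40, 10.94 and 11.07 in senescent cells. Itga6, the laminin-binding integrin chain that associates with Cd151, was 2.98-fold lower, with 8.98, 8.15 and 8.11 in proliferating and 9.95, 10.15 and 9.86 in senescent cells. Ifitm1, an interferon-induced membrane protein that associates with Cd81, read 9.18, 7.42 and 7.22 in proliferating and 6.12, 5.93 and 6.12 in senescent cells. Proliferating replicate 1 was the highest of these, and without it the change was 1.26, against 1.88 with all arrays (adjusted p = 0.0191). The call of Ifitm1 ended without any 1 senescent array (adjusted p up to 0.078) and under a robust trend in the variance (adjusted p = 0.0676).

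The list holds 11 integrin chains, singled out here after their values were seen, of which 5 passed as lower, 1 as higher and 5 did not pass. Over all genes 9.49% passed as lower and 10.5% as higher, and 27.4% of genes above background passed in either direction. Besides Itga6, those that were lower were Itga4 (-0.52), Itga3 (-0.49), Itgb1 (-0.30) and Itgav (-0.29), while Itgb3 was higher (0.37). Itgb1, the common beta chain, read 12.12, 12.26 and 12.19 in proliferating and 12.44, 12.58 and 12.45 in senescent cells (limma adjusted p = 0.0282). Its call ended with any array but proliferating replicate 2 left out (adjusted p of 0.0461 to 0.0864), only 1 of its 6 probe sets passed, and its sign turned to 0.24 with the spike-in shift. The EWI proteins, which bind Cd9 and Cd81 directly, gave 0.38 ± 0.06 (SE, adjusted p = 0.00421) for Ptgfrn and 0.12 ± 0.10 (adjusted p = 0.472) for Igsf8. The second probe set of Ptgfrn gave -0.05, and the mean of both did not pass (0.17, adjusted p = 0.204).

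Adam10 sheds many membrane proteins, and its substrates also went both ways. Of 29 measured, 5 passed as higher and 7 as lower, together 41.4%, against 20.0% of all genes and 27.4% of genes above background. The median change was -0.06, and 24 of the 29 lay above background. The largest falls in proliferating cells were those of the receptor kinase gene Epha2 (2.11-fold, -1.07 ± 0.09, SE), of Cd44, the hyaluronan receptor (1.98-fold, -0.99 ± 0.08), and of Pvr, a ligand of natural killer cell receptors (1.72-fold, -0.78 ± 0.10). Met, the receptor of hepatocyte growth factor, was 1.98-fold higher (0.98 ± 0.08), and the membrane-bound chemokine gene Cx3cl1 1.61-fold higher (0.69 ± 0.11). Cd44 and Met belong to the list of surface partners as well. All 5 passed at adjusted p between 1.28e-04 and 0.00355 (limma) and kept their calls with each array left out, but the call of Pvr ended with the spike-in shift (-0.24, adjusted p = 0.221). Of Cd44's 4 probe sets 3 passed, and of Cx3cl1's 4 only 2, with a mean over the 4 of 0.35.

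**Figure D4:**
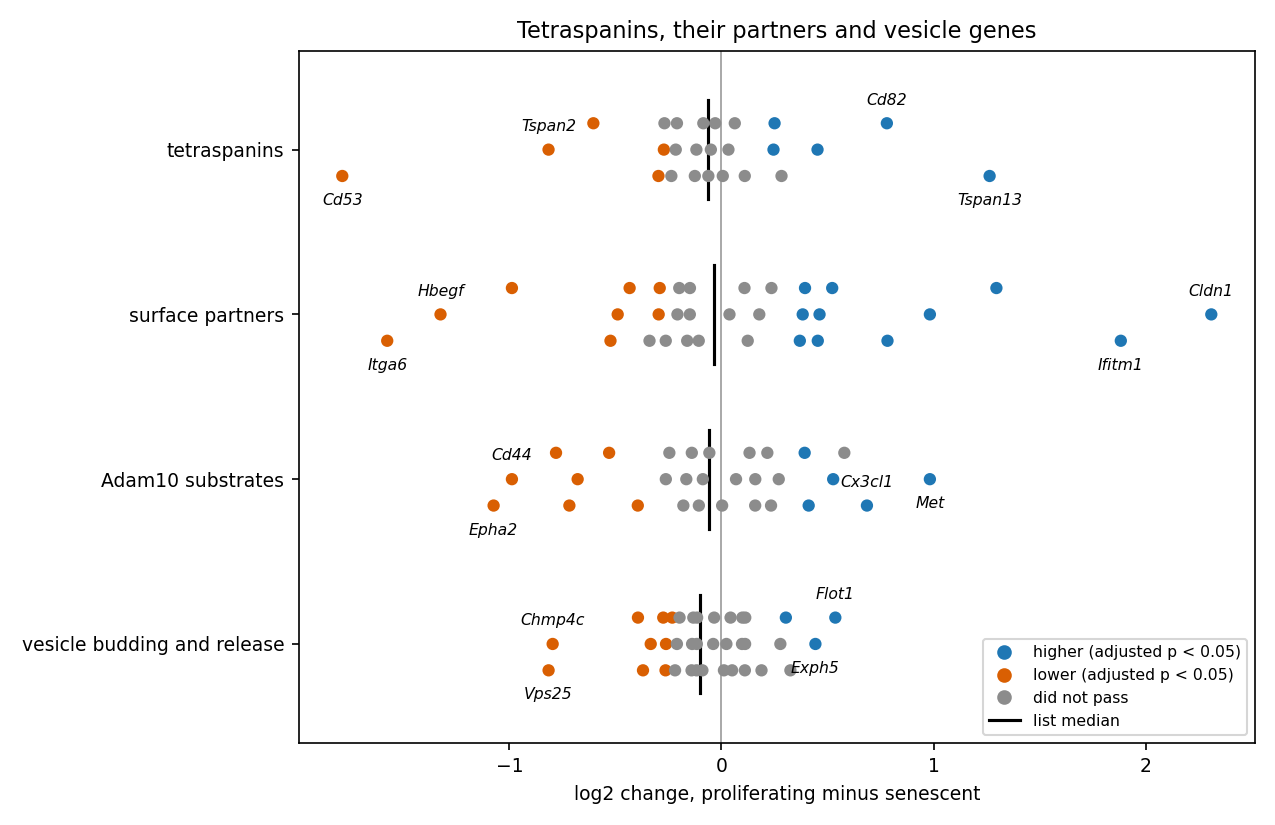
Log2 changes, proliferating minus senescent, of the 25 tetraspanin genes and of the lists of surface partners (32 genes), Adam10 substrates (29) and vesicle budding and release genes (36), each point a gene and each black bar the list median. Every list holds genes called higher (blue) and lower (orange), and the medians lie between -0.10 and -0.03.

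Genes for the budding and release of vesicles, on which tetraspanins are carried, changed in both directions. Of 36 measured, 3 passed as higher and 9 as lower, against 10.5% and 9.49% of all genes, with a median change of -0.10. Since 34 of the 36 lay above background, the called share of 33.3% is near the 27.4% of all genes above background. Vps25, a subunit of the sorting complex ESCRT-II, read 5.97, 5.63 and 5.81 in proliferating and 6.81, 6.56 and 6.49 in senescent cells (-0.82 ± 0.12, SE, limma adjusted p = 0.00197). Chmp4c, of ESCRT-III, had -0.80 ± 0.09, with 2 of 3 proliferating arrays below background, and 2 of its 5 probe sets passed, with a mean over the 5 of -0.32. The calls of Vps25 and Chmp4c ended with the spike-in shift (-0.27 and -0.26, adjusted p of 0.161 and 0.192). Flot1, a membrane raft protein, was higher in proliferating cells with 10.29, 10.32 and 10.27, against 9.78, 9.67 and 9.82 in senescent cells (0.54 ± 0.07, adjusted p = 0.00148). Exph5, an effector of Rab27, was at least 1.17-fold higher, as all senescent arrays lay below background. The syntenin gene Sdcbp, whose product links syndecans and tetraspanins to vesicle budding, gave 0.10 ± 0.09 (adjusted p = 0.546). Pdcd6ip, which encodes its partner ALIX, gave -0.27 ± 0.08 (adjusted p = 0.0424), a call that ended with any array but senescent replicate 3 left out (adjusted p of 0.0253 to 0.122), and its sign turned to 0.27 with the spike-in shift. Of its 5 probe sets 0 passed in the limma fit over all probe sets, and the call also ended with their mean (adjusted p = 0.0898). The list held 7 called genes without proliferating replicate 2 and 6 without proliferating replicate 3, in place of 12.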

How the data were processed

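The authors deposited log2 values, one per probe set and array, made by RMA according to the submitters' processing notes. This method subtracts background, forces all arrays to one distribution and combines probes, so a shift shared by most genes is removed and changes of dim probe sets are compressed. The labels state neither its version nor any batch.

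Of 45101 probe sets, 34958 had 1 gene symbol, 932 had several and 9211 had no entry. Symbols were updated through Entrez numbers with RefSeq tables (GRCm38.p6), which matched 34754. Each array's group was taken from its label. The test was limma's (version 3.58.1, under R 4.3.3; lmFit, then eBayes) without covariates, with Benjamini-Hochberg adjustment over 18194 genes, a threshold of 0.05, and 4 residual and 4.21 prior degrees of freedom. The median SE of a change was 0.0884, and the small number of arrays limits the precision. The fit was tested on simulated data. Levels ranked probe sets only to choose which to read, to name the brightest members and to mark dim ones, since levels of different probe sets are not on one scale of abundance. The folds of genes with all arrays of a group below background are bounds against that level. Windows before start sites were searched with exact matches. Python 3.11.15 with matplotlib 3.10.9 made the plots.

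The members and gene lists were chosen with earlier results of these data known, and lists were described by counts and medians. Values per array are given for called members changed by at least 0.5, the 5 brightest members, those whose probe sets disagree and, added after values were seen, the smaller called ones. From other lists, up to 4 called genes by size of change were named, with up to 2 in the opposite direction, besides Adam10, Itgb1, Sdcbp, Pdcd6ip, Igsf8 and Ptgfrn, and Itga3, Itga4, Itgav and Itgb3 were named after their values were seen. The settings varied were the choice of probe sets, scaling, a filter on dim genes, the variance model, replicate numbers and each array. Protein sequences were not used here.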

Additional observations from a re-analysis of the deposited data

How the results depend on the processing

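Of the 10 called tetraspanins, Tspan13, Cd82 and Cd53 kept direction and call under all 14 alternatives, and Tspan2 and Tspan8 under all but the spike-in shift. The counts of members called were 5 higher and 5 lower. They became 3 higher and 7 lower with arrays centred on the median gene, 3 and 3 with the replicate block, and 2 to 3 higher and 3 to 5 lower with 1 array left out, where fewer samples were fitted. The block is given only here, because same-numbered arrays did not deviate together (correlations of 0.09, -0.07 and -0.15). With it, Cd81, Tspan14, Tspan4, Tspan5 and Pdcd6ip lost their calls, and the vesicle list held 7 called genes against 12. Of all calls 52.6% were higher, against 36.8% with median centring and 98.6% with the spike-in shift. That shift gave 16 members called higher and 1 lower, 20 called Adam10 substrates against 12, 24 called vesicle genes, and 14471 genes higher and 204 lower against 1919 and 1726. It turned the signs of Cd151 (0.51), Cd37 (0.30), Cd81 (0.27), Tspan1 (0.27), Tspan10 (0.49), Tspan12 (0.46), Tspan15 (0.48), Tspan17 (0.33), Tspan31 (0.42), Tspan33 (0.42), Tspan5 (0.24), Tspan9 (0.33), Upk1b (0.11), Itgb1 (0.24) and Pdcd6ip (0.27). The following members and Sdcbp, uncalled, changed sign near 0. Median centring gave -0.063 for Tspan18, -0.036 for Tspan3 and -0.00603 for Tspan32, renewed quantile normalization -0.019 for Tspan18, and the mean of all probe sets -0.036 for Tspan32 and -0.00457 for Sdcbp. With 1 array left out, Cd151 ranged from -0.067 to 0.014, Tspan10 from -0.15 to 0.036, Tspan12 from -0.19 to 0.069, Tspan18 from -0.093 to 0.11, Tspan32 from -0.092 to 0.15 and Tspan3 from -0.00737 to 0.10. Genes called lower over the whole array numbered 1128 without senescent replicate 1. The call of Tspan5 ended under renewed quantile normalization and the mean of its probe sets (-0.30 and -0.38, adjusted p of 0.0529 and 0.0710). Cd37 passed under median centring (-0.31, adjusted p = 0.0409) and renewed quantile normalization (-0.24), and Tspan17 under median centring (-0.28). Of 25 members, 22 lay above background, also at the 90th percentile, and 20 at the 99th.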
